A study of Mus musculus with 8 samples.

Results

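The genes described here encode the nuclear part of the mitochondrial respiratory chain. They were taken from the deposited table of raw counts by symbol: every row beginning with Nduf, Sdha to Sdhd, Uqcr, Cox4i, Cox5 to Cox8 or Atp5, with pseudogenes and the Ndufaf assembly factors left out, and with at least 10 counts summed over the 8 libraries. That gave 84 members of the 37411 genes in the table. By prefix, 37 belong to complex I, 8 to complex II, 8 to complex III, 14 to complex IV and 17 to complex V. The prefixes also took in 6 genes that are not known as subunits, namely Sdhaf1, Sdhaf2, Sdhaf3, Sdhaf4, Atp5s and Atp5sl, and Ndufa4 is counted under complex I by its symbol although its protein is now known as a part of complex IV. Another 5 rows matched a prefix but fell under the minimum: Cox4i2, Cox7b2 and Ndufa4l2 had 1 count each, and Cox8b and Cox8c had 0. The member nearest above the minimum was Cox6a2, with 98 counts.

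The libraries came from CD4+ Teff (effector T) cells with a congenic marker, about 10000 per library, sorted 6 weeks after their transfer into mice. All hosts were C57BL/6 and Rag1-/-, a genotype without mature lymphocytes, and the hosts either carried the ileal bile acid transporter Asbt (Slc10a2 +/+) or lacked it (Slc10a2 -/-). The transferred cells carried the retroviral construct LMPd with a hairpin against Mdr1, a multidrug efflux transporter, or with the control hairpin shCD8, and were taken from spleen or small intestine, in the latter case from the lamina propria. Each of the 8 combinations of tissue, hairpin and host is 1 library, so each level of a factor holds 4 libraries. The hairpin was read from the sample titles, because the retrovirus field names shMdr1 for all 8. The labels do not say which libraries came from separate animals, so p-values reflect library-to-library spread, part of which may be technical. A bulk library also cannot tell fewer cells of a type from less RNA per cell.

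The respiratory chain passes electrons from NADH (complex I) or succinate (complex II) through ubiquinone to complex III, through cytochrome c to complex IV and from there to oxygen. Complexes I, III and IV pump protons as they do so, and complex V, the ATP synthase, uses the gradient to make ATP. Most subunits are encoded in the nucleus and imported, a small set of core subunits of complexes I, III, IV and V is encoded in mitochondrial DNA, and complex II is wholly nuclear. Effector T cells are known to use both oxidative phosphorylation and glycolysis.

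Nuclear respiratory chain genes are known for promoter motifs of a few shared factors, and 69 members could be matched by symbol to RefSeq promoters (GRCm38.p6, 250 bases before to 50 after the annotated start). The NRF1 motif is the run of capitals in the sequences printed here and reads the same on both strands. It was in a window of 5 of these 69 members (7.25%). The motif was in 2.53% of the 7396 other tested genes with a promoter and in 1.07% of all 27025 genes with a RefSeq promoter. The YY1 motif, on either strand, was in 5 (7.25%, against 2.84% and 0.995%), the ETS motif CCGGAAGT in 5 (7.25%, against 10.5% and 4.31%), and the CCAAT box in 29 (42.0%, against 43.0% and 41.1%). None of the 4 motifs holds another. The windows with the NRF1 motif belong to Ndufa11, Uqcrc1, Cox6a1, Atp5k and Atp5g2, and 1 is shown for each of complexes I, III, IV and V, to show where the motif sits in those members that hold it. Most of the 69 members lack it. The windows shown are written 5′ to 3′ on the strand of the gene with the motif in capitals. They lie at chr17:56717512-56717811 (plus strand), chr9:108936398-108936697 (plus), chr5:115348909-115349208 (minus) and chr5:108434350-108434649 (minus). In Ndufa11, Cox6a1 and Atp5k the motif begins 60, 162 and 50 bases before the start, and in Uqcrc1 it lies after the start. A match describes these letters only, and no binding was measured.
Ndufa11: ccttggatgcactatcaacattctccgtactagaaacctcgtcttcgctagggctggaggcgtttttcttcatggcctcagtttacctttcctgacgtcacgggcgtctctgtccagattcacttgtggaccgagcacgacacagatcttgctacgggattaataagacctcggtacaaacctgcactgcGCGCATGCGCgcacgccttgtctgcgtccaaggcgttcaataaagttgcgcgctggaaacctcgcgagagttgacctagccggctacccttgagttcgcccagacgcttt
Uqcrc1: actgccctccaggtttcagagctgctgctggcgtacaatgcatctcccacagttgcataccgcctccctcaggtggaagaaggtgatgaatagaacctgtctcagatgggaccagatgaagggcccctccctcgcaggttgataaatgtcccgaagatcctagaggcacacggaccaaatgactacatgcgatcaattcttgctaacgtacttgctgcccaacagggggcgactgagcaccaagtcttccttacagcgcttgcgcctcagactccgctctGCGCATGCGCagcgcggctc
Cox6a1: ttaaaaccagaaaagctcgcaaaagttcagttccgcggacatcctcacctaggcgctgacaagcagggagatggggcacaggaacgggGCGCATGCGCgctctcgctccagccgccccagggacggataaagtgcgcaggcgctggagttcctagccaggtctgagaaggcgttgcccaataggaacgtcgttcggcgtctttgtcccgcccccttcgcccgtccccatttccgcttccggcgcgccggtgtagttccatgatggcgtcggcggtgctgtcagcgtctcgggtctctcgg
Atp5k: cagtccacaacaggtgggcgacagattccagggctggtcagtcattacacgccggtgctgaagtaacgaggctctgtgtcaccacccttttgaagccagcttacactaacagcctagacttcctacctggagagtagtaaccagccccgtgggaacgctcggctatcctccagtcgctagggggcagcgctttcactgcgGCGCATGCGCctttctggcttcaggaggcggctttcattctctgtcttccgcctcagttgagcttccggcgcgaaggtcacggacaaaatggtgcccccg

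Totals ran from 1685225 to 2767105 counts per library, and from 8456 to 13184 genes had a count. Of these counts, 3.54% to 7.40% fell on the members, with 95% Wilson intervals, which cover counting error only, of 3.52% to 3.57% for the lowest share and 7.37% to 7.43% for the highest. Levels below are CPM (counts scaled to a common library size) adjusted with TMM factors, and 10000 genes passed the filter on low counts and were tested, with all 84 members among them. The 3 libraries with the lowest member share stood apart in mitochondrially encoded RNA. Transcripts with an mt- symbol took 18.3% of the counts in shMdr1 small intestine Asbt+/+, 17.6% in shCD8 spleen Asbt-/- and 26.8% in shMdr1 spleen Asbt-/-, against 6.63% to 8.63% in the other 5. In the same order Rn18s, a ribosomal RNA, took 1.64%, 1.60% and 2.35% of the counts, against 0.34% to 0.48% in the other 5. Abcb1a, the main Mdr1 gene, had 40.8 CPM with shCD8 and 18.7 with shMdr1 in spleen Asbt+/+, 29.7 and 22.2 in spleen Asbt-/-, and 91.0 and 40.4 in small intestine Asbt-/-. In small intestine Asbt+/+ it had 8.28 CPM in the library labelled shCD8 and 14.8 in the one labelled shMdr1 (21 and 23 counts). By Abcb1a that pair thus did not follow its labels. In the same order Abcb1b, the other Mdr1 gene, had 17.75 and 18.61 CPM. Cd8a, the gene named in the control hairpin, had 0 and 150 counts there. Library names here give the labels only. All 9 markers of CD4 T cells had counts in both tissues. Markers of other cells were present: the summed level of 8 neutrophil markers was 10.7 to 182 CPM in the small intestine, where Retnlg was at 0, and 859 to 7572 CPM in the spleen, and that of 6 erythroid markers was 38.3 to 105 against 1089 to 41544 CPM, highest in shMdr1 spleen Asbt-/-. The 8 macrophage and dendritic cell markers did not overlap between tissues, at 499 to 1099 CPM in the small intestine and 170 to 476 CPM in the spleen. The 13 epithelial markers summed to 47.9 to 864 CPM in the small intestine (Krt20 and Muc2 at 0) and 21.5 to 185 CPM in the spleen (Fabp1, Tff2 and Defa24 at 0). Their part in the results below was not tested.

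Per kilobase of transcript, the small subunits were the most abundant. Mean levels over the 8 libraries were 5697 ± 2193 CPM per kb (SD) for Atp5e, the epsilon subunit of the ATP synthase, and 5215 ± 1797 for Cox6c. Core subunits of complex I that carry electrons from NADH were lower on this scale: Ndufs1, the largest iron-sulfur subunit of the complex, had 10.4 ± 6.33 CPM per kb, and Ndufv1, which binds NADH, had 24.8 ± 8.09. In complex II the flavoprotein Sdha had 35.1 ± 6.95 CPM per kb and the iron-sulfur subunit Sdhb 284 ± 83.7. Transcript lengths are those of GENCODE M21, and a longer annotated isoform than the one expressed lowers a value. The steadiest member was Atp5a1, the alpha subunit of the ATP synthase, with 297 to 427 CPM and a coefficient of variation of 12.97% over the 8 libraries, followed by Cox7a2l, a supercomplex assembly factor, with 103 to 164 CPM and 13.2%. The median member had 32.3%, and the most variable was Cox6a2 with 162%.

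The summed level of the members was highest in the 2 small intestine libraries of Asbt-/- hosts and lowest in shMdr1 spleen Asbt-/-. Their summed level in the small intestine was 52086 CPM for shCD8 and 46027 for shMdr1 in Asbt+/+ hosts, and 70152 and 67148 in Asbt-/- hosts. In the spleen it was 59955 and 57507 CPM in Asbt+/+ hosts, and 51058 and 39717 in Asbt-/- hosts. The 2 small intestine libraries of Asbt-/- hosts thus lay above the other 6, and the shMdr1 spleen Asbt-/- library lay below the other 7. The plot of summed levels by complex shows the same for complexes I, III, IV and V, while complex II, at 625 to 970 CPM, is a thin band that does not follow it.

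**Figure D1:**
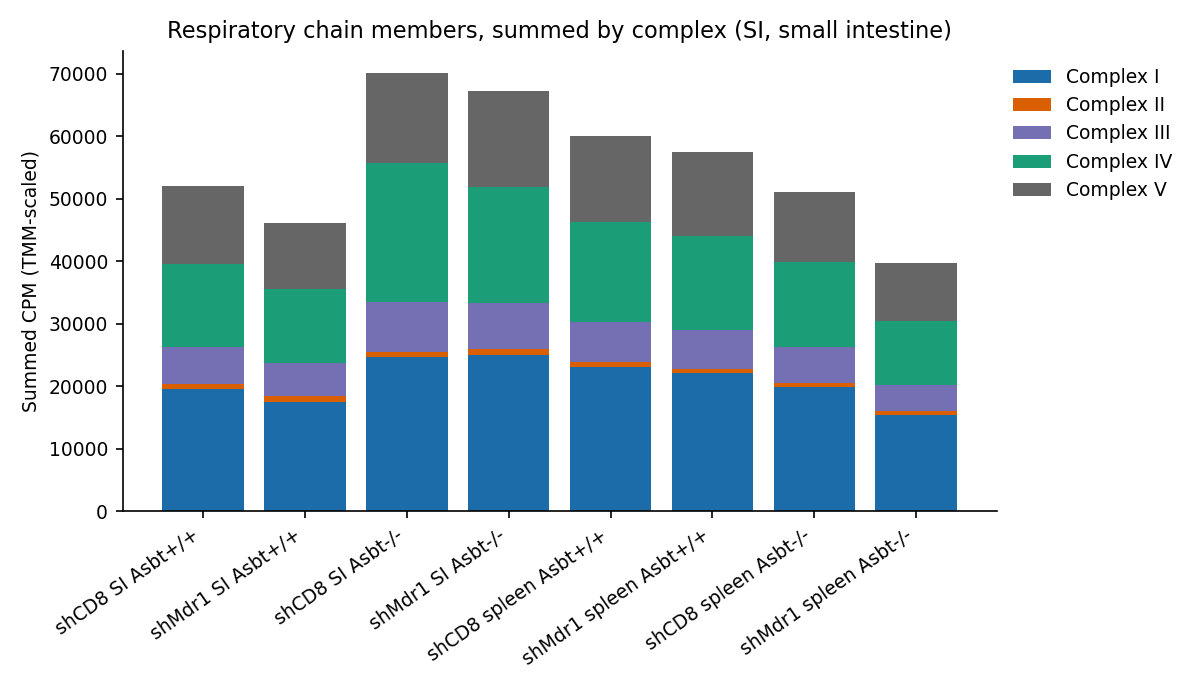
Summed level (TMM-scaled CPM, vertical axis from 0) of the members of each complex in each of the 8 libraries, stacked; SI is small intestine. The small intestine Asbt-/- libraries reach 70152 and 67148 CPM, and the shMdr1 spleen Asbt-/- library reaches 39717.

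No member passed the threshold (adjusted p under 0.05, edgeR quasi-likelihood test, Benjamini-Hochberg over the 10000 genes) in any of the 3 comparisons. Between small intestine and spleen the background was 62 genes or 0.62% called, between shMdr1 and shCD8 it was 0% and between the hosts 0%. At an unadjusted p under 0.05 there were 2 members for tissue (8.45% of all genes), 4 for hairpin (2.99%) and 2 for host (2.71%). The smallest adjusted p of any member was 0.59, 0.999 and 0.996 in these comparisons. DESeq2 and limma-voom also called 0 members.

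Between the tissues the members' fitted log2 fold changes (small intestine over spleen) had a median of 0.09, with 52 above 0 and 32 below, beside a median of -0.17 over all genes tested, of which 41.2% were above 0 and 58.8% below. For 0 members did the 4 small intestine libraries lie wholly above or below the 4 spleen libraries, against 3.39% of all genes above and 4.68% below. By complex the medians were 0.02 for I, 0.24 for II, 0.13 for III, 0.20 for IV and 0.06 for V. For the hairpin (shMdr1 over shCD8) the median was -0.06, with 37 above 0 and 47 below, beside 0.09 for all genes (55.1% above, 44.9% below). Without both small intestine Asbt+/+ libraries, where Abcb1a did not follow the labels, this median was -0.08. For the host (Asbt-/- over Asbt+/+) it was 0.05, with 46 above 0 and 38 below, beside 0.11 for all genes (57.3% above, 42.7% below).

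1 library split the members. For each member, the level in a library was set against the median of the other 7 as a log2 difference. The interquartile range of these differences over the 84 members was 1.94 in shCD8 small intestine Asbt-/- and 0.30 to 0.58 in the other 7 libraries. That library was the highest of the 8 for 37 members and the lowest for 27, against 14.2% and 9.48% of all genes tested. There, 23 members lay below -1 and 9 above 1. Of all 5075 genes with a mean level of at least 20 CPM, 10.8% lay below -1 and 6.88% above 1. The interquartile range over these 5075 genes was 0.92 there, within the 0.56 to 1.54 of the other 7 libraries.

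**Figure D2:**
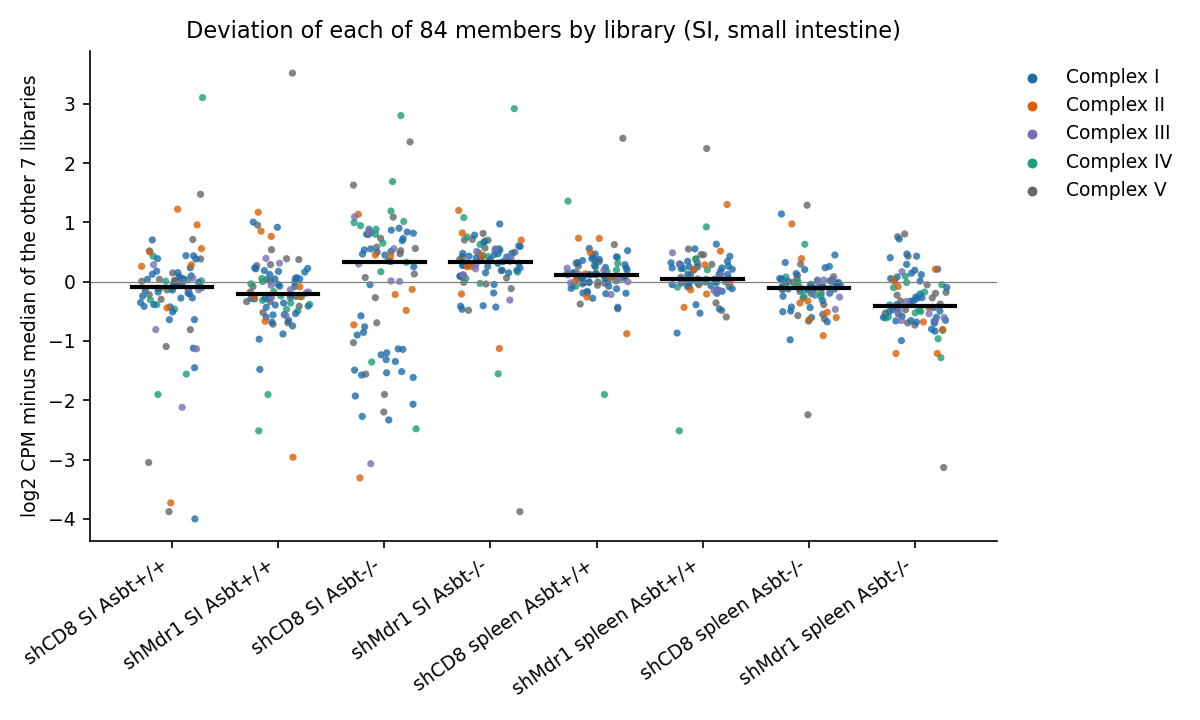
Level of each of the 84 members in each library as log2 CPM minus the median of the other 7 libraries (vertical axis), coloured by complex, with the median as a black bar; SI is small intestine. In shCD8 SI Asbt-/- the points form an upper and a lower group, with 23 members below -1.

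The low group in shCD8 small intestine Asbt-/- held 15 members of complex I, 4 of complex V, 2 of complex IV and 1 each of complexes II and III. Uqcrb, a small subunit of complex III, had 312 counts there (125 CPM) and 706 to 1266 CPM in the other 7 libraries. Cox5a, a subunit of complex IV, had 201 counts there (80.2 CPM), against 379 to 722 CPM elsewhere. Atp5h, subunit d of the ATP synthase stalk, had 425 CPM there against 1544 to 2741 elsewhere, and Cox4i1, the regulatory subunit of complex IV, 555 against 1265 to 2187. In each of these 4 genes the library lay below all 7 others. In the high group, Cox7a2 had 3591 CPM there against 1016 to 2389 elsewhere, Atp5e 4422 against 1355 to 2702, and Uqcr10, a complex III subunit, 2813 against 985 to 1759.

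The 2 groups differed in coding length, a feature that was examined after the values had been seen. Of the 21 members with a coding sequence of at most 300 nt, 21 lay above 0 in that library, with a median of 0.87. Of the 29 members of 400 to 800 nt, 22 lay below 0 and 17 below -1, with a median of -1.20, and of the 14 longer members 11 lay above 0. The 19 members of 300 to 400 nt were mixed, with 10 above and 9 below 0. In shMdr1 small intestine Asbt-/-, from the same tissue and host genotype, 19 of 21, 17 of 19, 24 of 29 and 7 of 14 lay above 0 in these classes. Other genes of the same coding lengths also had low values in the shCD8 library: 33.6% of those of 300 to 400 nt and 17.8% of those of 400 to 800 nt lay below -1, against 3.23% and 5.28% in the shMdr1 library. Other genes did not follow the members' split by coding length, however. Their medians were 0.12 up to 300 nt, -0.31 at 300 to 400 nt, -0.02 at 400 to 800 nt and 0.11 above that. Of other genes up to 300 nt 28.3% lay below -1, against 3.14% in the shMdr1 library, whereas 0 of the 21 members did. By annotated transcript length the low values stood at 600 to 1000 nt, where 16 of 29 members and 46.4% of other genes lay below -1. Low values in that library were therefore not limited to the respiratory chain, and what set them was not tested.

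**Figure D3:**
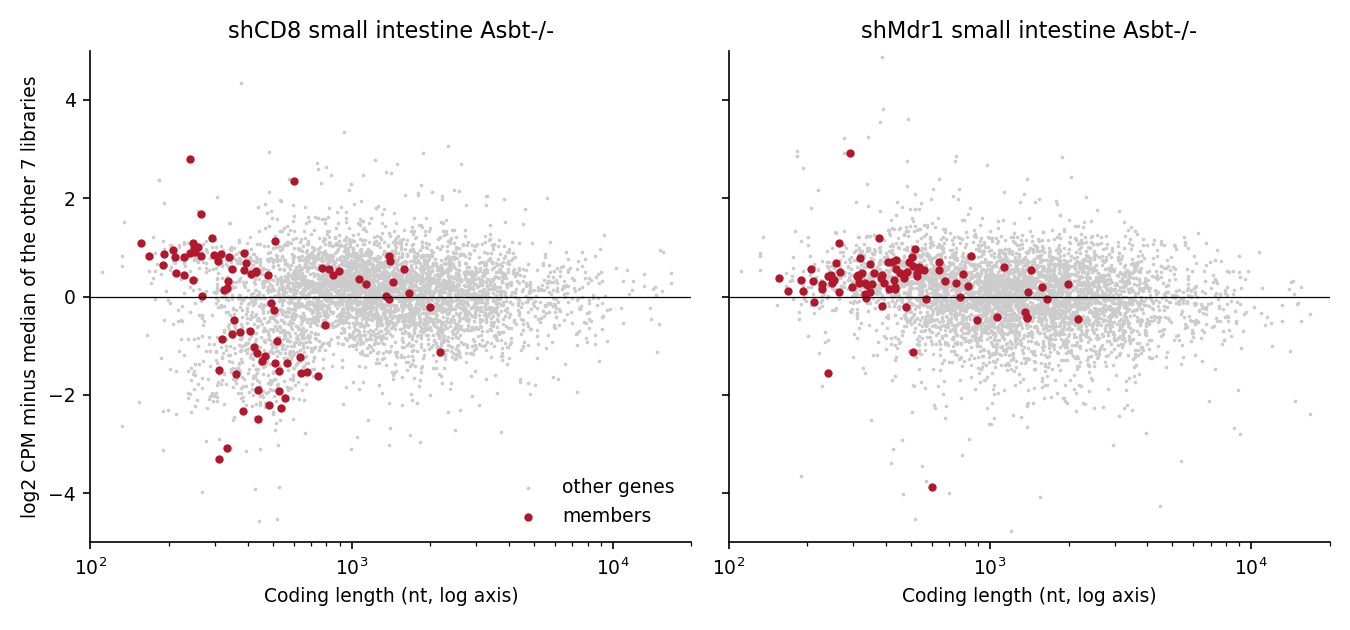
Level of each gene as log2 CPM minus the median of the other 7 libraries (vertical axis, shown from -5 to 5) against its coding length (nt, log axis) in the shCD8 and shMdr1 small intestine Asbt-/- libraries; red, members; grey, other genes with a mean of at least 20 CPM. In the shCD8 library 17 of the 29 members of 400 to 800 nt lie below -1, and 21 of the 21 up to 300 nt lie above 0.

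The shCD8 small intestine Asbt+/+ library, with counts in 8456 genes, had low values for some members, though for a smaller share than of genes of all lengths. It was the lowest of the 8 for 13 of the 84 members, against 44.5% of all genes tested. There, 11 members lay below -1, against 24.6% of the 5075 genes with at least 20 CPM. That background varied with coding length. Of other genes, 8.18% up to 300 nt, 11.1% of 300 to 400 nt, 17.6% of 400 to 800 nt and 28.8% of longer ones lay below -1. In these classes 2 of 21, 2 of 19, 3 of 29 and 3 of 14 members did. Whether members differed from other genes of like length was not tested. Ndufs1 had 3 counts there (1.18 CPM) and 14.4 to 52.7 CPM in the other 7. Uqcrc2, a core subunit of complex III, had 22.9 CPM there and 67.1 to 127 elsewhere. Sdhaf3, a complex II assembly factor, had 0 counts there, which allows up to 1.18 CPM, and 0.64 to 17.1 CPM elsewhere.

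In complex I the smallest unadjusted p-values were between the hairpins. Ndufs8, an iron-sulfur core subunit on the path to ubiquinone, had in the small intestine 111 CPM with shCD8 and 230 with shMdr1 in Asbt+/+ hosts, and 103 and 333 in Asbt-/- hosts. In the spleen it had 242 and 273 CPM in Asbt+/+ hosts, and 153 and 379 in Asbt-/- hosts. It was higher with shMdr1 in 4 of 4 matched pairs, though the 4 shMdr1 libraries overlapped the shCD8 ones. How many of all genes go the same way in 4 of 4 pairs was not counted, here or below. The log2 fold change was 1.05 ± 0.29 (SE, n = 4 against 4, edgeR adjusted p = 0.999), and between 0.86 and 1.31 when each library was left out in turn. Ndufa8, an accessory subunit, had 186 and 336 CPM, then 94.2 and 329 in the small intestine in the same order, and 167, 167, 110 and 177 in the spleen. Its fold change was 0.83 ± 0.30 (edgeR adjusted p = 0.999). On the log2 scale it was 1.33 within the small intestine and 0.34 within the spleen, where the Asbt+/+ pair was level. Ndufc2, a membrane-arm subunit, had 152 and 344, then 140 and 578 CPM in the small intestine, and 415, 497, 427 and 418 in the spleen. Within the small intestine its log2 fold change was 1.61 ± 0.35 (unadjusted p = 0.00257 in edgeR, 2 libraries against 2, adjusted p = 0.785), and the 2 shCD8 libraries of the small intestine were the lowest of the 8. Ndufb2, another membrane-arm subunit, was lower with shMdr1 in 4 of 4 pairs, at 98.2 to 193 CPM against 159 to 291, a log2 fold change of -0.63 ± 0.28 (adjusted p = 0.999).

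The 2 shCD8 libraries of the small intestine are those with low members described above, so each of these fold changes was also taken without both. It was then 0.70 for Ndufs8, 0.33 for Ndufa8, 0.13 for Ndufc2 and -0.64 for Ndufb2. Over all 37 members of complex I, 19 were above 0 and 18 below for the hairpin, with a median of 0.02. The core subunits Ndufs1 and Ndufv1 had hairpin log2 fold changes smaller than their errors, 0.72 ± 0.92 and 0.09 ± 0.45. Between tissues Ndufs1 had -0.99 ± 0.91, with 3 counts in shCD8 small intestine Asbt+/+, and Ndufc2 had -0.77 ± 0.35 (edgeR adjusted p = 0.59). Without both shCD8 libraries of the small intestine these were 0.49 and -0.02. Ndufs4, an accessory subunit whose loss impairs the complex, had 141 CPM in shCD8 small intestine Asbt-/- and 340 to 689 in the other 7.

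Complex II was the one complex whose summed level did not overlap between tissues. It was 774 to 970 CPM in the 4 small intestine libraries and 625 to 716 in the 4 spleen libraries, with means of 883 ± 89.6 and 682 ± 42.1 CPM (SD, n = 4), and it was higher in the small intestine in 4 of 4 matched pairs, by 0.24 to 0.48 on the log2 scale. The groups did not overlap under DESeq2 size factors or library totals either. Sdhb, its iron-sulfur subunit, had 227, 454, 365 and 473 CPM in the small intestine and 258, 267, 246 and 309 in the spleen, so that 3 of 4 intestinal libraries lay above all spleen libraries. Its log2 fold change was 0.45 ± 0.24 (edgeR adjusted p = 0.674). Sdhc, a membrane anchor, had 114, 87.9, 107 and 31.3 CPM in the small intestine and 37.4, 69.5, 48.4 and 39.4 in the spleen, a fold change of 0.71 ± 0.41, which was 0.34 to 1.07 when each library was left out in turn. Sdha, at 64.8 to 119 CPM against 94.1 to 128, and Sdhd, the other anchor, at 89.5 to 139 against 80.4 to 104, differed by less than their errors (log2 fold changes -0.12 ± 0.28 and 0.19 ± 0.27). Sdhaf4, which helps to assemble the complex, was lower in Asbt-/- hosts in 4 of 4 pairs, with 183 and 212 CPM in Asbt+/+ against 11.97 and 127 in Asbt-/- small intestine, and 132 and 93.7 against 67.0 and 78.8 in spleen. Its fold change was -1.22 ± 0.54 (adjusted p = 0.996), and its lowest value, 30 counts, was in the library that split the members. Without that library the fold change was -0.63.

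In complex III no member reached an unadjusted p of 0.05 in the 3 comparisons. Uqcrc1, a core subunit whose promoter window is printed above, had 46.1 and 93.1 CPM in small intestine Asbt+/+, 115 and 137 in small intestine Asbt-/-, 102 and 92.0 in spleen Asbt+/+ and 73.7 and 105 in spleen Asbt-/-. Uqcrfs1, the Rieske iron-sulfur protein, ran from 81.2 to 181 CPM. The log2 fold changes between hosts were 0.37 ± 0.32 for Uqcrc1, 0.08 ± 0.46 for Uqcrc2 and 0.07 ± 0.31 for Uqcrfs1. The small subunits Uqcrq and Uqcr10 were lower with shMdr1 in 4 of 4 pairs, with log2 fold changes of -0.41 ± 0.28 and -0.38 ± 0.30. Without the library that split the members, shCD8 small intestine Asbt-/-, these were -0.20 and -0.12.

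In complex IV, the small subunits Cox6c, Cox8a and Cox6b1 had the highest mean levels per length, at 5215, 3272 and 3024 CPM per kb. Cox6c had 2548 and 1952 CPM in small intestine Asbt+/+ hosts and 4391 and 2826 in Asbt-/- hosts, and 3125 and 2524 in spleen Asbt+/+ and 2312 and 1306 in Asbt-/- hosts. It was higher with shCD8 in each of the 4 pairs (log2 fold change, shMdr1 over shCD8, -0.52 ± 0.34, edgeR adjusted p = 0.999), and the value was -0.31 without the library that split the members. The summed level of the complex was likewise lower with shMdr1 in 4 of 4 pairs, at 13912 ± 3654 CPM against 16323 ± 4194 (SD, n = 4). The spread within each level was larger than this difference. Cox5b, a zinc-binding subunit, had 704 to 1655 CPM, with its highest value in shCD8 small intestine Asbt-/-, where Cox5a and Cox4i1 had their lowest.

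The isoforms of complex IV known from other tissues had few counts, and each had most of them in 1 library. Cox6a2, the heart and muscle form, had 98 counts, of which 62 were in shMdr1 small intestine Asbt-/- (24.6 CPM), and 0 in 3 of the 4 Asbt+/+ libraries, where 0 allows up to 1.18, 1.93 and 1.29 CPM. Its log2 fold change between hosts, 4.36 ± 1.79, depends on the prior count and did not pass (edgeR adjusted p = 0.996). Cox6b2, the testis form, had 101 of 180 counts in shCD8 small intestine Asbt+/+ (39.8 CPM), and Cox7a1, the muscle form, had 121 of 230 in shCD8 small intestine Asbt-/- (48.3 CPM). The common forms were at 1085 to 1877 CPM for Cox6a1, 1224 to 3184 for Cox6b1 and 1016 to 3591 for Cox7a2.

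In complex V, the alpha and beta subunits Atp5a1 and Atp5b, which form the catalytic head, had log2 fold changes between -0.29 and 0.31 in the 3 comparisons with SEs of 0.23. Atp5d, the delta subunit of the central stalk, was higher in the small intestine in 4 of 4 pairs, with 539, 234, 194 and 341 CPM against 170, 182, 151 and 261 in the spleen (log2 fold change 0.77 ± 0.35, edgeR adjusted p = 0.593). Without its highest library, shCD8 small intestine Asbt+/+, the fold change of Atp5d was 0.28. The c-ring is encoded by 3 genes with the same mature protein. Per length, Atp5g3 had a mean of 1338 ± 473 CPM per kb (SD), Atp5g1 67.6 ± 21.3, which its long annotated transcript lowers, and Atp5g2 24.8 ± 12.4. Atp5g2 was the only member whose hairpin levels did not overlap (1.45% of all genes were higher with shMdr1 in this way and 1.34% lower). It had 9.07, 4.79, 15.5 and 13.4 CPM with shCD8 and 30.8, 23.4, 20.4 and 27.7 with shMdr1, from 12 to 59 counts per library, with a log2 fold change of 1.36 ± 0.66 (adjusted p = 0.999). Atp5sl, which is no subunit, was the only member whose host levels did not overlap (1.78% of all genes were higher in Asbt-/- hosts in this way and 0.93% lower), at 0.39 to 9.46 CPM in Asbt+/+ and 9.91 to 31.1 in Asbt-/- hosts, from 1 to 78 counts. Its log2 fold change was 1.95 ± 0.98 (adjusted p = 0.996). Both genes rest on few counts.

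The hairpin comparison within each tissue, 2 libraries against 2, gave 0 members past the threshold (0% of all genes in both) and 0 for the difference between tissues (0%). At an unadjusted p under 0.05 there were 6 members in small intestine (4.81% of all genes), among them Ndufc2, Ndufs8, Ndufa8, Atp5g3 and Atp5o, the stalk subunit OSCP, all higher with shMdr1. There were 0 in spleen (0.62%) and 1, Ndufc2, for the difference (1.7%). In small intestine 40 members were above 0 and 44 below (57.6% and 42.4% of all genes), with a median of -0.02 beside 0.22. In spleen 28 were above and 56 below (50.2% and 49.8%), with a median of -0.17 beside 6e-04. The difference between tissues was above 0 for 56 and below for 28 (58.2% and 41.8%). Atp5o had 566 and 673 CPM, then 192 and 897 in the small intestine, and 551, 674, 467 and 468 in the spleen, with the larger gap in the pair that holds the library that split the members.

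The host difference went in opposite directions in the 2 tissues. Both shMdr1 pairs and the shCD8 spleen pair include a library rich in mitochondrial transcripts and Rn18s. That library is Asbt+/+ in small intestine and Asbt-/- in spleen. The shCD8 small intestine pair sets the library with counts in 8456 genes against that which split the members. Host and these differences between libraries cannot be told apart here. In small intestine the summed level was 1.35-fold higher in Asbt-/- than in Asbt+/+ hosts with shCD8 and 1.46-fold higher with shMdr1, and in spleen it was 0.852-fold and 0.691-fold that of Asbt+/+ hosts. With shMdr1, 68 of 84 members were higher in the small intestine of Asbt-/- hosts and 67 of 84 were lower in their spleen. With shCD8, 49 were higher in the small intestine and 62 lower in the spleen. How many of all genes did so in each pair, or in both tissues, was not counted, and medians are given below. In the plot of host differences 49 members lie above 0 in small intestine and below 0 in spleen, and 5 lie the other way. The summed macrophage and dendritic cell markers moved in the same directions. In small intestine they went from 841 to 1099 CPM (shCD8) and from 499 to 660 CPM (shMdr1). In spleen they went from 290 to 183 CPM and from 476 to 170 CPM. The neutrophil, epithelial and CD4 T cell sums did not follow the members, and were lower in Asbt-/- hosts in every pair. Neutrophil markers went from 111 to 39.9 CPM and from 182 to 10.7 CPM in small intestine. In spleen they went from 6729 to 859 CPM and from 7572 to 3014 CPM. Erythroid markers were lower in every pair but shMdr1 spleen. The part of any of these markers in the host difference was not tested.

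**Figure D4:**
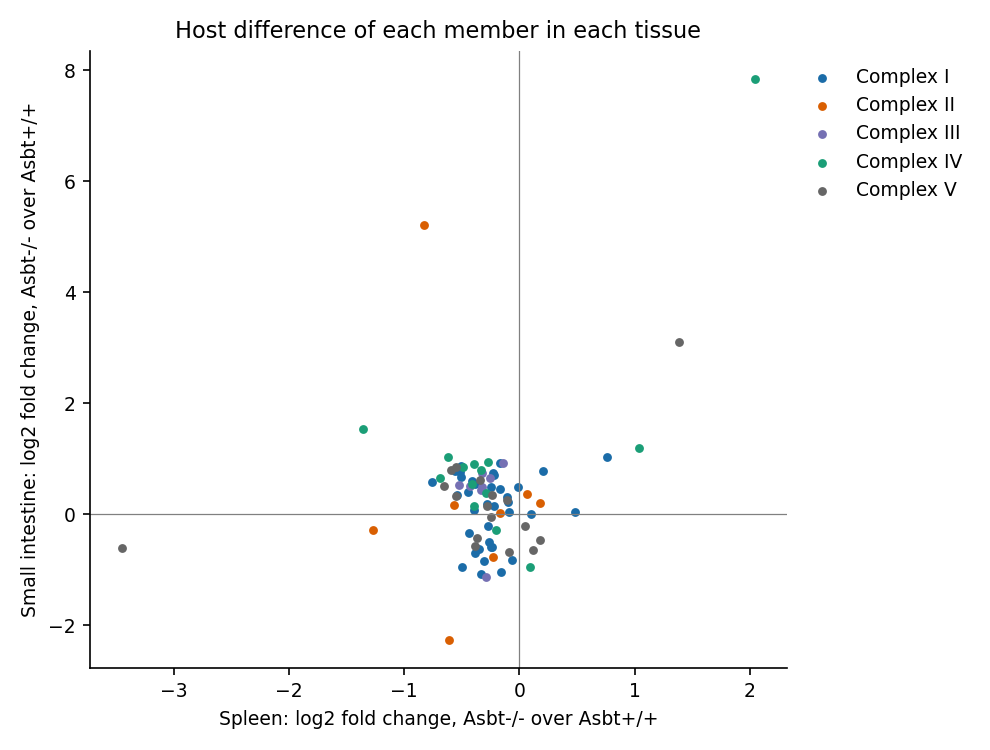
Fitted log2 fold change between hosts (Asbt-/- over Asbt+/+) of each member in spleen (horizontal axis) and in small intestine (vertical axis), coloured by complex, 2 libraries against 2 in each tissue. In spleen 71 of the 84 members lie below 0, and in small intestine 57 lie above 0.

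In the fit with separate effects in each tissue, the members' median log2 fold change between hosts was 0.34 in small intestine (57 above 0, 27 below) and -0.29 in spleen (13 above, 71 below). Over all genes the medians were 0.36 and -0.03, with 61.6% above 0 and 38.4% below in small intestine, and 48% above and 52% below in spleen. Over the 5075 genes with a mean of at least 20 CPM the medians were 0.12 and -0.02. The members' median in spleen thus lay below both, while in small intestine it lay close to that of all genes tested and above that of the better expressed genes. In the shMdr1 small intestine pair it was 0.48, beside 0.01 over all genes, and in the shCD8 pair 0.32 beside 0.53. In the spleen pairs it was -0.45 beside -0.02 with shMdr1 and -0.19 beside -0.01 with shCD8. No member passed in either tissue or in the test of the difference between tissues (0% of all genes in each). At an unadjusted p under 0.05 there were 13 members in small intestine (7.43% of all genes), 0 in spleen (1.02%) and 14 for the difference (4.31%). The difference between tissues was above 0 for 61 members and below for 23, with a median of 0.57, beside 0.46 for all genes (62.7% above, 37.3% below) and 0.17 for those with at least 20 CPM. All of those 14 but Ndufv3 have a coding sequence of at most 400 nt. Cox7a2 had a difference between tissues of 1.64 ± 0.51 (edgeR adjusted p = 0.937), Atp5j2, subunit f of the ATP synthase, 1.39 ± 0.44, Atp5e 1.39 ± 0.47, Cox5b 1.33 ± 0.45 and Ndufa4 1.28 ± 0.44. Cox7a2 itself had 1303 and 1445 CPM in small intestine Asbt+/+, 3591 and 2171 in small intestine Asbt-/-, 2389 and 1799 in spleen Asbt+/+, and 1799 and 1016 in spleen Asbt-/-.

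The 2 small intestine pairs differed by coding length in the way described above. With shCD8, 20 of 21 members up to 300 nt were higher in Asbt-/- hosts (median log2 ratio 0.85) and 23 of 29 of 400 to 800 nt were lower (median -1.22). With shMdr1, without the library that split the members, 19 of 21 and 22 of 29 were higher, with medians of 0.53 and 0.42. The increase in small intestine was therefore also seen with shMdr1 alone, though that pair is 1 library against 1 and has no replicate. In spleen the members up to 300 nt were lower in both pairs, 19 of 21 with shCD8 and 20 of 21 with shMdr1.

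The host differences ran opposite to those of the mitochondrially encoded subunits in both spleen pairs and in the shMdr1 small intestine pair. In the shCD8 small intestine pair the summed mtDNA-encoded level was nearly the same, at 37858 CPM in Asbt+/+ and 36574 in Asbt-/- hosts. With shMdr1 it was 87069 and 43792 CPM in that tissue. The 13 mtDNA-encoded subunits took 3.43% to 3.99% of counts in 5 libraries, 8.05% in shMdr1 small intestine Asbt+/+, 8.00% in shCD8 spleen Asbt-/- and 11.2% in shMdr1 spleen Asbt-/-. Nuclear members took 4.26%, 5.08% and 3.54% in these last 3 and 5.46% to 7.40% in the other 5. The ratio of nuclear to mtDNA-encoded counts was 0.317 in shMdr1 spleen Asbt-/-, 0.529 and 0.635 in the other 2 libraries rich in mtDNA transcripts, and 1.38 to 1.92 in the remaining 5. The 2 sets thus fell on opposite sides in the same 3 libraries. Both are shares of the same total, so a higher mtDNA-encoded share by itself lowers the nuclear share. The 8 mtDNA-encoded genes that passed the filter were mt-Nd1 to mt-Nd6, mt-Cytb and mt-Co1. They held nearly all of the mtDNA-encoded counts, and mt-Nd4l, mt-Co2, mt-Co3, mt-Atp6 and mt-Atp8 had almost none. The shares and ratios above thus describe these 8 genes. None passed the test. Their median log2 fold change between hosts was 1.67 in spleen, with 8 of 8 above 0, and -0.41 in small intestine, with 7 of 8 below 0. In the shCD8 small intestine pair alone mt-Nd3, mt-Nd6 and mt-Cytb were higher in Asbt-/- hosts, and the rest of these genes were lower. When mt-, hemoglobin and Rn18s counts were left out of the scaling, the summed level of the nuclear members was 60795, 53630, 81219 and 78488 CPM in the small intestine and 70571, 67004, 60124 and 46768 in the spleen, in the order given above, so each pair kept its direction.

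**Figure D5:**
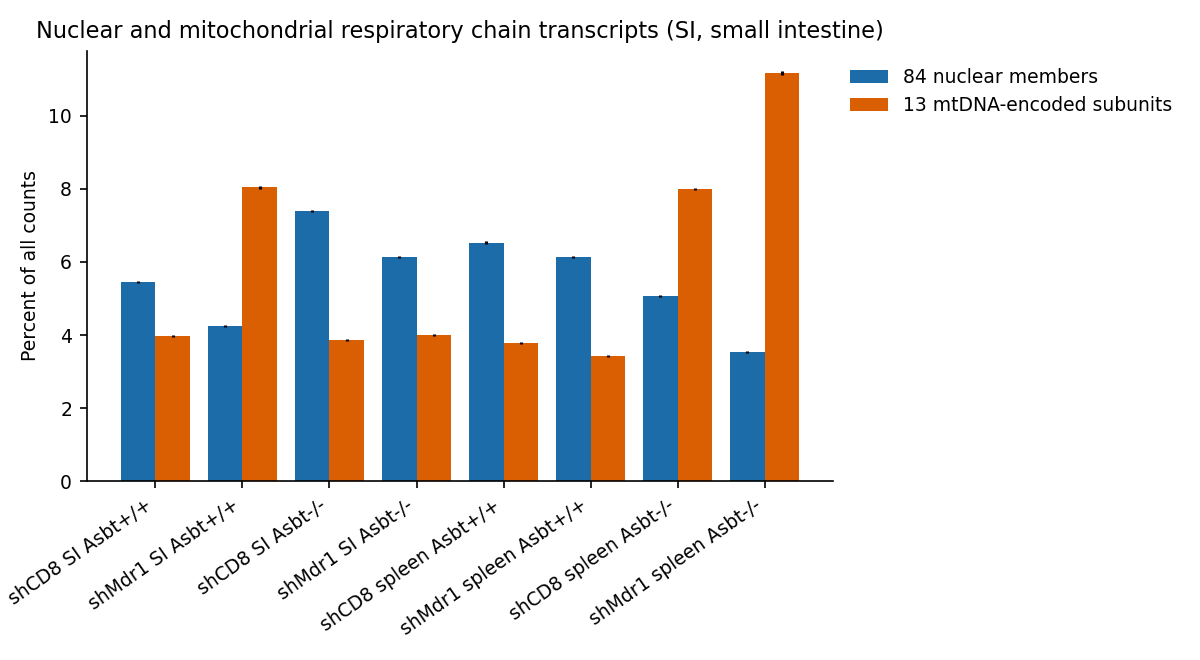
Share of all counts (percent, axis from 0) on the 84 nuclear members and on the 13 mtDNA-encoded subunits in each library; error bars are 95% Wilson intervals and SI is small intestine. The 3 libraries with 8.00% to 11.2% mtDNA-encoded counts have the lowest nuclear shares, 3.54% to 5.08%. Nearly all mtDNA-encoded counts fell on 8 of the 13 genes.

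Other genes of the pathway were taken from lists, and none of them passed the test in the 3 comparisons. The list of carriers and subunits outside the symbol rule (18 genes, among them cytochrome c and the adenine nucleotide carriers) had a host median of 0.46 in small intestine (12 of 18 above 0) and -0.41 in spleen (15 of 18 below 0). The cytosolic ribosomal proteins (83 of 87 tested), another group of short abundant transcripts, had 0.26 in small intestine (54 of 83 above 0) and -0.26 in spleen (76 of 83 below 0), so the same signs were present outside the respiratory chain. The mitochondrial ribosomal proteins had -0.0045 and -0.14 (75 of 77 tested), the tricarboxylic acid cycle enzymes -0.12 and -0.10 (17 of 17), the assembly factors 0.16 and -0.21 (39 of 44) and the glycolysis genes 0.20 and -0.09 (15 of 16). The biogenesis regulators (13 of 15), many of them at low counts in shCD8 small intestine Asbt+/+, had 1.36 and -0.10. Tfam, which packages mitochondrial DNA, had 6.70 and 13.5 CPM in small intestine Asbt+/+, 38.7 and 15.5 in small intestine Asbt-/- and 33.0 to 58.0 in the spleen. Between tissues, the glycolysis list had a median of 0.51 with 12 of 15 above 0, beside 0.09 for the members.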

How the data were processed

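The authors deposited 1 table of unnormalised counts, a whole number of reads for each gene and library. Per the labels' protocols, cDNA came from a SMART-Seq v4 kit and was made into libraries with NEBNext Ultra II. Per the submitters' processing notes the tools were TopHat, HTSeq and DESeq2, on mm9. Their versions, their roles, the annotation and strandedness were not given in the sources used here. Overlapping genes and near-identical copies are therefore uncertain. Counts were filtered (filterByExpr), TMM-scaled and fitted with the quasi-likelihood model of edgeR 4.0.16 (R 4.3.3) on tissue, hairpin and host, with 4 residual degrees of freedom, and with separate effects per tissue, with 2. The SE was taken from the F statistic (absolute log2 fold change over the root of F). The scripts were tested on simulated data. Alternatives used DESeq2 1.42.0 and limma 3.58.1; tables and plots used pandas 2.3.3 and matplotlib 3.10.9. Lengths came from GENCODE M21 and promoters from RefSeq, both on GRCm38, so no coordinates of the counted genes are given. Named were the core subunits, tissue isoforms and c-ring genes, per complex the members with the largest fold changes among those with a mean of at least 20 CPM, and up to 5 with the smallest p per comparison. The values of 1 such gene are left out. Any other name (Sdhaf3, Ndufv3, the genes beside the promoters, Tfam) was chosen after its values were seen. The members and lists were chosen with earlier results of these data known.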

Additional observations from a re-analysis of the deposited data

Results flagged for a closer look

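Of 108 values checked over the 4 libraries of a tissue, 8 had 1 library far from the other 3 by Dixon's criterion at 95%; chance gives about 1 in 20. In spleen, Ndufa8 was low in shCD8 Asbt-/- (110 CPM), as was Sdhd (80.4 CPM), Uqcrc2 was low in shMdr1 Asbt-/- (67.1 CPM), and Ndufc2 (497 CPM) and Uqcrfs1 (173 CPM) were high in shMdr1 Asbt+/+. In small intestine all 3 were in shCD8 Asbt-/-, the library that split the members: Cox7a1 (48.3 CPM) and Uqcr10 (2810 CPM) were high and Ndufb5, a membrane-arm subunit of complex I, was low (113 CPM).

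The summed levels of complexes I, III, IV and V were higher in Asbt-/- than in Asbt+/+ hosts in both small intestine pairs and lower in both spleen pairs. The mean log2 ratio of the pairs in small intestine minus that in spleen was 0.801 for complex I, 0.813 for III, 1.1 for IV, 0.782 for V and 0.87 for all members. This difference was not tested on the sums; among single members none passed the test of it.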

How the results depend on the processing

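No member passed under any of the 18 settings tried for each main comparison, or with the 4 libraries of a tissue alone; the lowest adjusted p of a member was 0.0798, for the host within the spleen libraries alone, where 149 genes were called. Over all genes, calls between tissues ranged from 11 (without shMdr1 small intestine Asbt+/+) to 257 (DESeq2), for the hairpin from 0 to 9 and for the host from 0 to 14. Scaling by library totals shifted the median of all genes by -0.14 (hairpin) and -0.10 (host). When each library was left out, the members' median ran from -0.23 to 0.0146 for the hairpin, the hairpin log2 ratio of complex IV sums from -0.40 to -0.042, and the host ratio of complex II sums from -0.23 to -0.0088; the first 2 lows were without shMdr1 small intestine Asbt-/-. Library totals gave 0.0042 for the hairpin and -0.20 for the host in complex II, and leaving out the 6 genes that are not subunits gave 0.0853 for the host. With members of 600 to 1000 nt alone, a choice made after seeing the data, the log2 ratios were 0.52 for tissue, 0.38 for hairpin and -1.12 for host in complex II, and for the hairpin 0.0582 in complex I and -0.0027 in all members. With the others alone they were 0.0568 for the host in complex II and -0.30 for the hairpin in complex V. The replicate numbers pair no libraries, since each group holds 1; a replicate block for each matched library pair gave 0 members, with medians of 0.06 (tissue), -0.07 (hairpin) and 0.02 (host), and changed no call. Members with few counts, such as Cox6a2 with 98 in all, are limited by depth.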
